A study of Mus musculus with 60 samples.

Results

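Cytosolic ribosomal protein genes were followed across bulk RNA-seq of mouse cancer-associated fibroblasts (CAFs) grown with lung cancer cells or alone. Members were taken by symbol: Rps or Rpl with a number and at most 1 further letter, plus Rplp0, Rplp1, Rplp2 and Rpsa, with named pseudogenes left out. The rule gave 82 genes of the 48440 in each count table, 47 of the large subunit, 32 of the small subunit and 3 of the stalk. It leaves out Rps3a1, Fau and Rpl36al, which encode subunit proteins under other names, and it takes in rarely expressed paralogs such as Rpl10l, Rpl39l and Rpl3l.

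The CAFs are called tCAFs in the labels, which do not explain the prefix, and all were mouse cells enriched by fluorescence-activated sorting before lysis. 344SQ and 393P are mouse lung adenocarcinoma lines, 344SQ known as metastatic and 393P as poorly metastatic. In multicellular aggregates, where the cells touch, CAFs were grown with 344SQ, with 393P or alone (3 replicates each). A second aggregate table holds CAFs grown with 344SQ cells labelled shZEB1, an shRNA against the transcription factor Zeb1, or shCTL, a control shRNA (3 replicates each). In the Boyden chamber, where a membrane keeps the cells apart, CAFs were grown with 344SQ, with 393P or alone (5 biological replicates each, every one with 3 technical libraries that were summed). The labels do not say whether replicates are separate isolates of fibroblasts, and p-values measure only how far these libraries spread.

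The ribosome joins a small subunit, which reads the mRNA, to a large subunit, which makes the peptide bond, and each is built of ribosomal RNA and of proteins made from single-copy genes. Vertebrate ribosomal protein mRNAs usually begin with a run of pyrimidines, the 5′ terminal oligopyrimidine (TOP) tract, through which the kinase mTOR sets their translation with the help of the binding protein LARP1. Because the mRNAs are short, abundant and copied into many processed pseudogenes, their counts also depend on library preparation and on how reads that match several places are handled.

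Members took a far smaller share of the counts in aggregates than in the Boyden chamber, and depth differed as well. Library totals were 757717 to 1258751 counts in the aggregate table, 739530 to 2144803 in the shRNA table and 4182944 to 8542262 in the Boyden sums. Of the 82 members, 68, 73 and 79 passed the filter on low counts in these tables. Genes that are rRNA-like or mitochondrial took at least 41.8% of the counts in the aggregates, 44.0% to 60.0% in the shRNA table and 12.2% to 16.3% in the Boyden sums. All 12 fibroblast markers had counts in each table, while summed carcinoma markers lay at 11.1 to 103, 44.3 to 1646 and 19.8 to 94.9 CPM (a gene's counts scaled to a library total of 1e6).

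In the Boyden chamber the members' share of all counts was 2.97%, 3.54%, 3.02%, 3.72% and 3.61% with 344SQ, 3.48%, 3.12%, 3.87%, 3.75% and 3.84% with 393P, and 3.62%, 2.90%, 3.16%, 3.37% and 3.18% in CAFs alone. The means were 3.37% ± 0.354, 3.61% ± 0.316 and 3.25% ± 0.270 (SD, n = 5 each), and the 3 groups overlapped. In the aggregates the share averaged 0.336% ± 0.0117 with 344SQ, 0.332% ± 0.0462 with 393P and 0.361% ± 0.0101 in CAFs alone (SD, n = 3 each). The 3 libraries with 344SQ (0.325% to 0.348%) lay below those of CAFs alone (0.352% to 0.372%), while those with 393P (0.279% to 0.363%) overlapped them. The separation with 344SQ was lost without rRNA-like and mitochondrial genes in the total (0.577% to 0.697% with 344SQ, 0.646% to 0.667% in CAFs alone) and with annotated pseudogenes counted in (0.374% to 0.418% with 344SQ, 0.405% to 0.423% in CAFs alone). The libraries labelled shZEB1 averaged 0.530% ± 0.0889 and those labelled shCTL 0.503% ± 0.131 (SD, n = 3 each), again overlapping. Fewer CAFs of a kind and less mRNA per CAF cannot be told apart in such bulk samples.

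**Figure D1:**
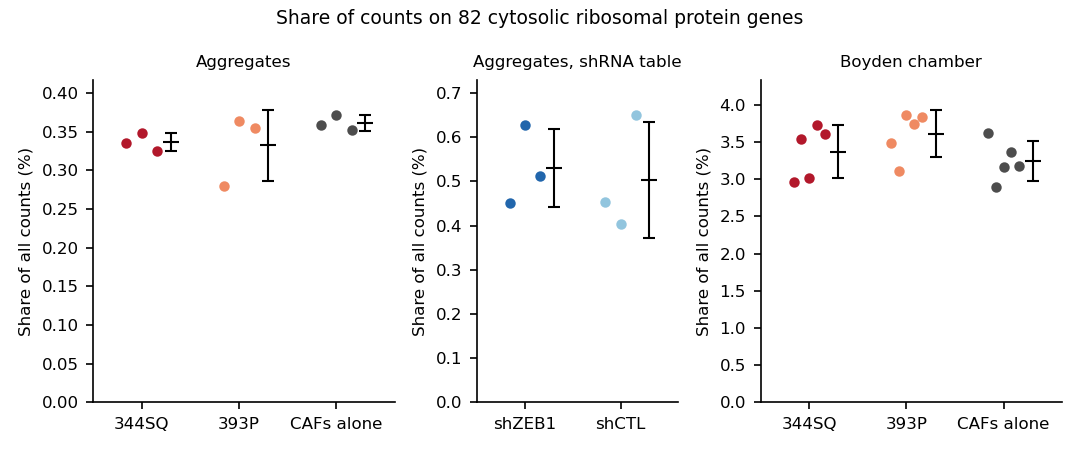
Share of all counts (%) that fell on the 82 ribosomal protein genes, 1 point per library (Boyden points are sums of 3 technical libraries), with the mean and SD beside each group. The vertical axes differ between panels: aggregate libraries lie at 0.279% to 0.372%, shRNA table libraries at 0.404% to 0.651% and Boyden sums at 2.90% to 3.87%.

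The first Boyden comparison set CAFs grown with 393P against CAFs alone. Of 79 members tested, 31 rose, none fell, and the others did not pass. The rises were modest, at most 1.43-fold, and came from both subunits: 15 of 44 large subunit genes, 14 of 32 small subunit genes and 2 of 3 stalk genes. Among all 14040 genes tested, 15.6% were called, 7.68% as higher and 7.96% as lower (edgeR quasi-likelihood test, Benjamini-Hochberg adjusted p under 0.05). The median log2 change of the members was 0.18, that of all genes 0.00. Members did not all lean this way, since 59 of 79 had a positive change.

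Rps15a, a small subunit protein gene, had the smallest p. Its levels were 359, 443, 363, 424 and 416 CPM with 393P, against 268, 315, 302, 251 and 288 CPM in CAFs alone. All 393P replicates lay above all CAFs alone, a log2 change of 0.49 ± 0.09 (SE, adjusted p = 0.000440). Rpl36a, which encodes a large subunit protein, stood at 330, 314, 341, 377 and 414 CPM with 393P and at 242, 251, 266, 245 and 237 CPM in CAFs alone, again without overlap (0.52 ± 0.10, adjusted p = 0.000646). Rpl7, of the large subunit, stood at 569, 618, 629, 635 and 680 CPM with 393P and at 522, 483, 482, 476 and 484 CPM in CAFs alone (0.36 ± 0.07, adjusted p = 0.000744). Rps15a lies on chromosome 7 (118104372 to 118116188, minus strand, mm10), Rpl36a on X (134585654 to 134588062, plus strand) and Rpl7 on chromosome 1 (16101295 to 16104662, minus strand). These 3 genes differ in length and in copies elsewhere. The annotated mRNA of Rps15a has 5179 bases, 6.37% of whose 50-base stretches recur in transcripts of other genes, while 85.5% recur for Rpl36a (483 bases) and 53.3% for Rpl7 (1163 bases). The percent is taken over the whole annotated mRNA, so a long one can lower it. Such stretches were shared with 64 other genes for Rps15a, 9 for Rpl36a and 13 for Rpl7.

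The next genes by p were Rps20 and Rpl3. Rps20, a small subunit gene in which mutations darken mouse skin, stood at 806, 839, 869, 978 and 1038 CPM with 393P, against 680, 700, 659, 669 and 630 CPM in CAFs alone (0.44 ± 0.09, adjusted p = 0.00113). Rpl3, whose protein reaches towards the centre where peptide bonds form, stood at 869, 939, 986, 1082 and 1124 CPM with 393P, against 766, 758, 756, 740 and 691 CPM in CAFs alone (0.43 ± 0.09, adjusted p = 0.00150). In neither gene did the groups overlap. Rps20 lies on chromosome 4 (3831334 to 3835665) and Rpl3 on chromosome 15 (80077791 to 80091868), both on the minus strand.

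Rps12, a small subunit gene known from cell competition in Drosophila, averaged 928 ± 76.6 CPM with 393P and 711 ± 43.0 CPM in CAFs alone (SD, n = 5 each; log2 change 0.38 ± 0.08). Rpl30, whose protein in yeast represses the splicing of its own transcript, averaged 340 ± 38.3 CPM with 393P and 263 ± 18.7 CPM in CAFs alone (0.37 ± 0.08). Rpl5, whose protein with Rpl11 and 5S rRNA can bind and restrain the p53 ligase MDM2, averaged 446 ± 28.8 CPM with 393P and 365 ± 6.79 CPM in CAFs alone (0.29 ± 0.07). Rpl11 rose as well (0.34 ± 0.08, adjusted p = 0.00647). Further rises among genes of known interest were Rps19, the gene most often mutated in human Diamond-Blackfan anaemia (0.31 ± 0.07), Rps27l, a p53-induced paralog of Rps27 (0.27 ± 0.06), Rpl38, needed in mouse embryos for translating Hox mRNAs (0.29 ± 0.08), and the stalk genes Rplp1 (0.25 ± 0.07) and Rplp2 (0.29 ± 0.09). Leaving out single replicates lost the call of Rplp2 (393P replicate 3, 4 or 5, CAFs alone replicate 3 or 5), Rplp1 (393P replicate 3, 4 or 5) and Rpl38 (393P replicate 4). With the technical library number as a block Rpl38 (0.18, adjusted p = 0.201) and Rplp2 (0.22, adjusted p = 0.0754) did not pass. In 15 of the 79 members the 5 replicates with 393P did not overlap the 5 of CAFs alone, beside 12.4% of all genes tested.

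Among genes that often serve as references in quantitative PCR, Rps18 passed the test and Rplp0 and Rpl13a did not. Rplp0, the stalk base, stood at 281, 294, 278, 304 and 307 CPM with 393P and at 326, 270, 283, 292 and 290 CPM in CAFs alone (0.00 ± 0.07, adjusted p = 0.979). Rps18 rose (0.33 ± 0.10, adjusted p = 0.0221), although its groups overlapped, with 911 to 1197 CPM with 393P and 748 to 972 CPM in CAFs alone. Its call was lost without 393P replicate 3, 4 or 5 or CAFs alone replicate 3 or 5 (adjusted p = 0.0527 to 0.0803). Rpl13a had a log2 change of 0.24 ± 0.09 that missed the threshold (adjusted p = 0.0704). Values for Rps6, the target of the S6 kinases (0.10 ± 0.07), Rps14, lost in the human 5q- syndrome (-0.01 ± 0.13), Rpsa, also named for the laminin receptor (-0.06 ± 0.13), and Rpl10a (-0.07 ± 0.10) did not pass either.

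**Figure D2:**
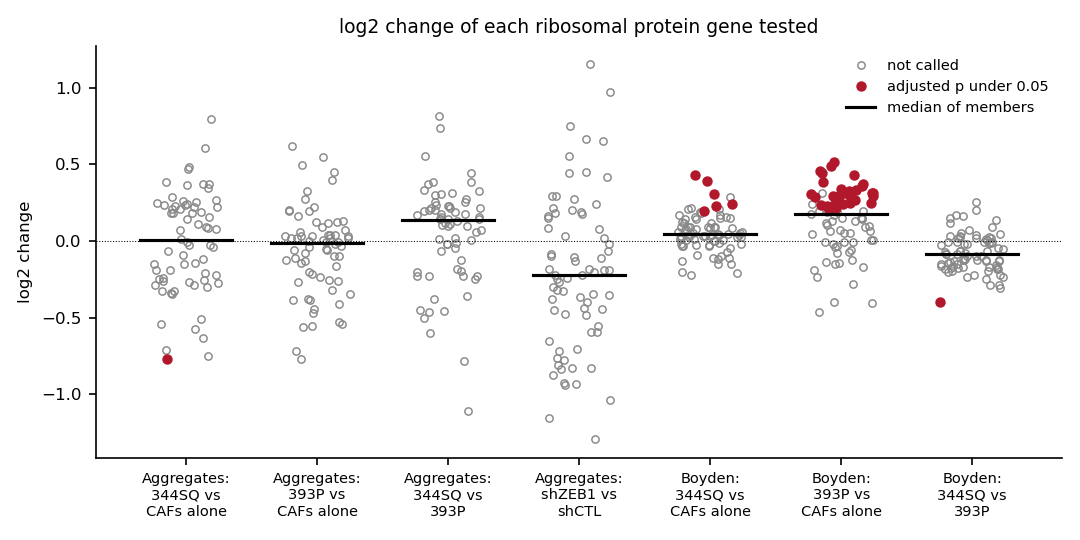
log2 change of every ribosomal protein gene tested in each comparison, 1 circle per gene, filled where the adjusted p was under 0.05, with the median of the members as a line. Filled circles number 31 for 393P against CAFs alone in the Boyden chamber, 6 for 344SQ against CAFs alone there, and 1 or 0 in each other comparison.

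With 344SQ in the Boyden chamber, 6 of 79 members rose over CAFs alone and none fell, beside 14.9% of all genes called, 7.43% as higher and 7.44% as lower. The 6 were Rps15a, Rpl36a, Rpl7, Rpl39, Rpl37 and Rpl5, and all 6 had also risen with 393P; both comparisons use the same CAFs alone. The median member change was 0.04, that of all genes 0.01, and 58 of 79 members had a positive change. Rps15a stood at 351, 347, 346, 500 and 377 CPM with 344SQ, all above the 251 to 315 CPM of CAFs alone (0.43 ± 0.09, adjusted p = 0.00135). Rpl36a stood at 266, 261, 329, 419 and 354 CPM with 344SQ, against 237 to 266 CPM in CAFs alone (0.39 ± 0.10, adjusted p = 0.00730). The other 4 changed by 0.31 ± 0.09 (Rpl39, whose small protein lines the exit tunnel), 0.24 ± 0.08 (Rpl37), 0.23 ± 0.07 (Rpl7) and 0.20 ± 0.07 (Rpl5). Of these Rpl5 alone had groups that did not overlap, at no less than 375 CPM with 344SQ and at most 372 CPM in CAFs alone. Groups did not overlap in 2 of 79 members, beside 9.93% of all genes tested. The call of Rpl5 was lost without 344SQ replicate 3, 4 or 5, 393P replicate 1, 3 or 4, or any one replicate of CAFs alone. Those of Rpl39, Rpl37 and Rpl7 were also lost without some single replicates. Members called numbered 2, all higher, without 344SQ replicate 4, CAFs alone replicate 4 or CAFs alone replicate 5. They numbered 3, all higher, without 344SQ replicate 5 or CAFs alone replicate 3. Without 344SQ replicate 1 there were 9, all higher, and without 344SQ replicate 2 there were 10, 9 higher and 1 lower.

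The start regions of the genes that rose with both lines are shown for the TOP tract, together with those of the 3 reference genes. RefSeq promoter sequences (GRCm38.p6) were found for 60 of the 82 members, but not for Rpl7. Each window runs from 15 bases before the annotated start to 15 from it, on the strand of the transcript and 5′ to 3′, with the longest unbroken run of C or T in capitals.
Rps15a, chr7:118116133-118116162, minus strand: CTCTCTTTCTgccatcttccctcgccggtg
Rpl36a, chrX:134585639-134585668, plus strand: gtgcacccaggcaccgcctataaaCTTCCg
Rpl39, chrX:37085208-37085237, minus strand: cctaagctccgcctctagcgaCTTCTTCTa
Rpl37, chr15:5116598-5116627, plus strand: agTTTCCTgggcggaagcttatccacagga
Rpl5, chr5:107900513-107900542, plus strand: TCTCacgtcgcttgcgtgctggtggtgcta
Rplp0, chr5:115559452-115559481, plus strand: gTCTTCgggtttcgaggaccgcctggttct
Rpl13a, chr7:45128731-45128760, minus strand: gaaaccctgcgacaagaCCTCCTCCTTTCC
Rps18, chr17:33955651-33955680, minus strand: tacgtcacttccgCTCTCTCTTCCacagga
Runs of at least 7 such bases, searched on the transcript strand, were present in the windows of 33 of 60 members (55.0%) and of 21.3% of 27025 genes with a promoter; the median longest run was 7 and 5 bases. Rps15a (10 bases), Rpl39 (8), Rpl13a (13) and Rps18 (11) had such a run, and Rpl36a (5), Rpl37 (6), Rpl5 (4) and Rplp0 (5) had none in this window. A run could lie anywhere in the window, so it need not be a TOP tract, with which the mRNA begins. That of Rps15a lay wholly before the annotated start, those of Rpl39 and Rpl13a began after it, and that of Rps18 spanned it. With 393P, 12 of 32 tested members with a run anywhere in the window rose (37.5%), against 12 of 25 without one (48.0%). Their median log2 changes were 0.19 and 0.21. Tracts at the start itself were not compared. Members that hold a small nucleolar RNA gene in their span rose in 11 of 29 cases (37.9%), the others in 20 of 50 (40.0%).

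Between the lines in the Boyden chamber, 1 of 79 members was lower with 344SQ than with 393P and none was higher, beside 3.88% of all genes called, 2.52% as higher and 1.36% as lower. The one was Rpl30, with 227, 289, 225, 302 and 248 CPM with 344SQ against 312, 299, 363, 333 and 393 CPM with 393P (-0.40 ± 0.08, adjusted p = 0.00450). The groups overlapped in 1 of the 5 replicates of 344SQ, the 302 CPM of replicate 4. Next by p came Rps21 (-0.31 ± 0.09), Rpl38 (-0.25 ± 0.08) and Rps20 (-0.29 ± 0.09), at adjusted p of 0.0606 to 0.0694. The median member change was -0.09, that of all genes 0.00, and 21 of 79 members had a positive change. Replicate 4 with 344SQ had 1139 CPM of Rpl3 where the other 4 had 755 to 808, and 971 CPM of Rps20 where they had 624 to 721. Without it, 15 members were lower, and the count was also over 1.5 times higher without 393P replicate 2 (5) and without 393P replicate 1, 344SQ replicate 2 or CAFs alone replicate 1 (2 each).

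**Figure D3:**
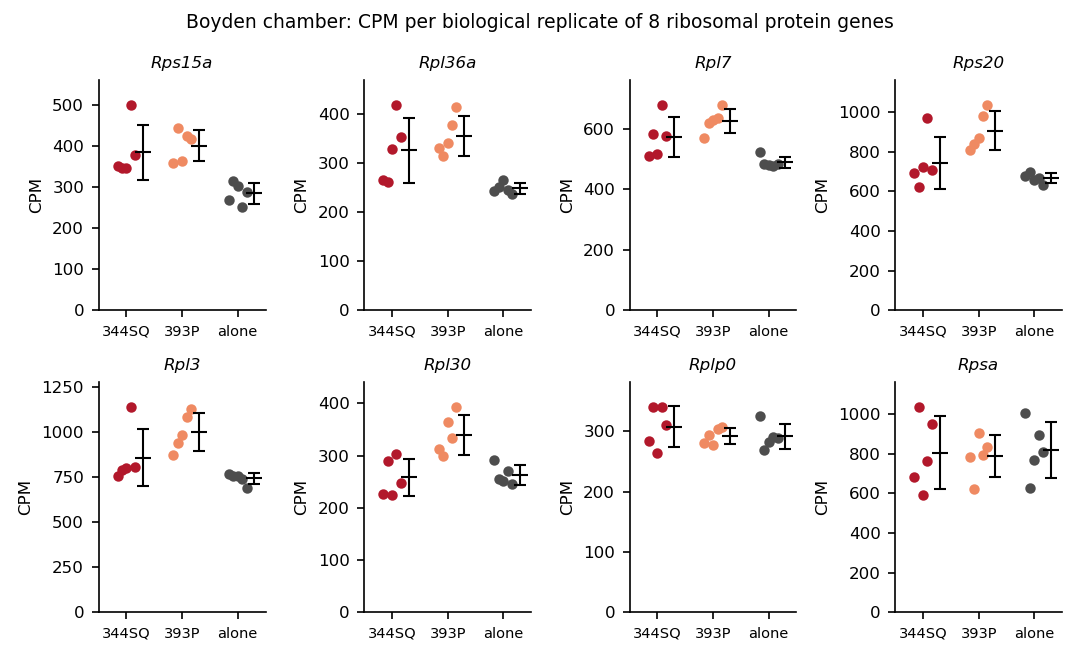
CPM of 8 ribosomal protein genes in each Boyden replicate, with the mean and SD beside each group (n = 5). With 393P every point of Rps15a, Rpl36a, Rpl7, Rps20, Rpl3 and Rpl30 lies above those of CAFs alone, and Rplp0 and Rpsa overlap among all groups; the highest 344SQ point of Rps15a, Rpl36a, Rpl7, Rps20, Rpl3 and Rpl30 is replicate 4.

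The members' share also moved with the technical library number. Libraries numbered 1 gave members 2.29% to 3.10% of the counts (mean 2.60%, n = 15), those numbered 2 gave 2.66% to 4.71% (3.34%) and those numbered 3 gave 2.78% to 4.35% (3.85%). Library 3 was above library 1 in 15 of 15 replicates and library 2 above library 1 in 14 of 15. Set over library 1 in a limma fit on all 45 libraries, library 3 had 61 of 79 members higher and 1 lower, with a median log2 difference of 0.46, where 22.1% of all genes were higher and 21.2% lower. For library 2 over library 1 these were 40 higher and 1 lower, a median of 0.27, and 6.15% higher and 8.39% lower. The mitochondrial share ran the other way, with means of 16.6%, 13.1% and 10.9% for numbers 1, 2 and 3. What the number stands for beyond a technical replicate is not given in the sources used here.

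Because each number holds all 15 replicates, the comparisons were repeated within it. Depth was not balanced between groups there. Number 1 totals were 289848 to 1803631 counts with 344SQ, 1300854 to 2367545 with 393P and 1895296 to 2724947 in CAFs alone. In number 3 they were 2087270 to 3036835, 1845540 to 2981268 and 2345218 to 3654179. Whether depth bears on the results within a number was not tested. For 393P against CAFs alone the median member change was -0.01 in number 1, 0.33 in number 2 and 0.08 in number 3. Members called were 2 higher in number 1 (Rps15a and Rpl7), beside 3.23% of all genes higher and 2.62% lower. In number 2 it was 1 higher (Rpl9), beside 0.666% and 1.1%, and in number 3 it was 19 higher with Rpl28 lower, beside 4.9% and 4.84%. With the number as a block over the 45 libraries, 22 of 79 members were higher and none lower (median 0.15, beside 9.66% and 8.83% of all genes). That limma fit gave libraries of 1 replicate a shared correlation, estimated at -0.01, so it in effect counted 45 libraries of 15 replicates as independent, and its p-values may be too small. Without 393P replicate 4 or replicate 5 the summed counts gave 17 higher in place of 31. Of the 31 members that rose, 24 had a positive change in all 3 numbers, and Rplp2 (-0.16) and Rpl38 (-0.30) were among those negative in number 1.

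The number 2 libraries carried the widest gap between the lines, and their depth differed too. Totals in number 2 were 1017459 to 2109715 counts with 344SQ, 1838790 to 3785291 with 393P and 2163136 to 2842917 in CAFs alone. There the member share averaged 2.89% ± 0.229 with 344SQ, 3.98% ± 0.753 with 393P and 3.16% ± 0.310 in CAFs alone (SD, n = 5 each), 393P replicate 2 lying apart from the others of its group at 2.72%. In number 1 the same means were 2.58%, 2.54% and 2.69%, and in number 3 they were 3.92%, 3.93% and 3.69%. For 344SQ against 393P the median member change was 0.05, -0.36 and -0.03 in numbers 1, 2 and 3, with 0, 15 and 0 members lower and none higher. Of all genes, 0.115%, 0.844% and 0.232% were lower and 0.586%, 1.64% and 1.07% higher. The block fit gave 4 members lower, beside 1.75% of all genes (3.1% higher). The 6 rises shared by both lines were positive in each number for each line. With 344SQ, Rps15a was called alone in numbers 1 and 2 and Rpl36a alone in number 3. Of all genes, 2.64%, 2.64% and 3.62% were higher and 2.16%, 1.92% and 2.72% lower in numbers 1, 2 and 3. The block fit gave 5 members higher and 1 lower (median -0.01, beside 10.2% and 9.18% of all genes).

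**Figure D4:**
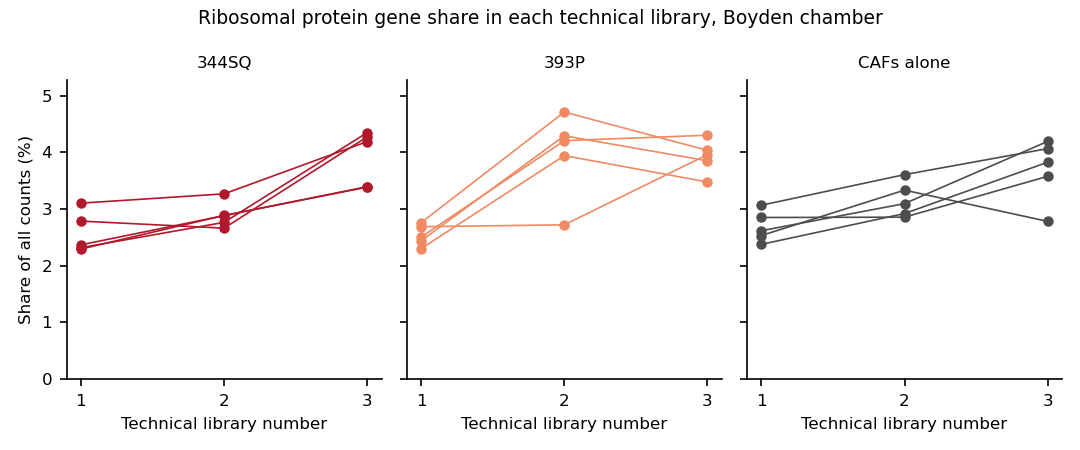
Share of all counts (%) on the 82 ribosomal protein genes in each Boyden library against its technical library number, with a line for each biological replicate. Number 3 lies above number 1 in 15 of 15 replicates, and 4 of the 5 lines with 393P are at 3.94% to 4.71% at number 2.

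In the aggregates, where the cells touch, few members could be told apart between groups at a depth of 2819 to 4571 counts on all members together per library. With 344SQ, 1 of 68 members fell against CAFs alone and none rose, beside 5.84% of all genes called, 3.48% as higher and 2.36% as lower. That gene was Rpl3, with 50.4, 44.9 and 48.5 CPM with 344SQ against 78.4, 106 and 63.8 CPM in CAFs alone (-0.77 ± 0.22, adjusted p = 0.0359), groups that did not overlap. The call was lost without any one of the 344SQ replicates, without CAFs alone replicate 1 or 2, and with DESeq2. Next by p stood Rps24, mutated in some human Diamond-Blackfan anaemia (0.61 ± 0.26), Rpl4, a tunnel protein gene (-0.34 ± 0.17), and Rpl7 (-0.54 ± 0.29), at adjusted p of 0.215 to 0.364. The median member change was 0.00 and that of all genes -0.01.

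With 393P in the aggregates, 0 of 68 members passed (2 at an unadjusted p under 0.05), where 10.7% of all genes were called by edgeR, 5.41% as higher and 5.27% as lower; DESeq2 gave 0 members too. The smallest p was that of Rpl8, a large subunit gene, with 71.3, 86.4 and 91.9 CPM with 393P against 146, 107 and 90.9 CPM in CAFs alone (-0.47 ± 0.19, adjusted p = 0.127). Rps20 had -0.55 ± 0.25, Rpl17 0.55 ± 0.30 and Rpl23a -0.77 ± 0.44. The median member change was -0.01 and that of all genes 0.00. Between the lines 0 of 68 members passed as well (3 at an unadjusted p under 0.05), beside 4.15% of all genes (2.21% as higher, 1.94% as lower); DESeq2 gave 0 as well, and the median was 0.14. Rps27 had 4.11, 7.27 and 9.33 CPM with 344SQ against 13.1, 11.1 and 21.9 CPM with 393P (-1.11 ± 0.45, adjusted p = 0.230), without overlap, and its paralog Rps27l had 17.5, 15.8 and 11.2 CPM with 344SQ against 8.44, 6.34 and 10.4 CPM with 393P (0.82 ± 0.43, adjusted p = 0.410). Rpl3 stood at -0.50 ± 0.22 and Rps6 at -0.60 ± 0.28. Carcinoma markers summed to 15.9 to 38.5 CPM with 344SQ, 21.7 to 103 with 393P and 11.1 to 15.9 in CAFs alone, 0 of the 20 passed the count filter and Ocln was at 0; their part in these values was not tested.

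No member changed detectably in the shRNA table. Zeb1 itself had 144, 48.4 and 120 CPM in the libraries labelled shZEB1 and 71.8, 105 and 50.3 CPM in those labelled shCTL (0.47 ± 0.53, adjusted p = 0.896), so these sorted CAFs give no check of the knockdown, which was made in the cancer cells. Of 73 members 0 passed, 0 at an unadjusted p under 0.05, and 0% of the 7801 genes passed by edgeR (466 at an unadjusted p under 0.05); DESeq2 also gave 0 members. The biological coefficient of variation was 61.7%, against 16.2% in the aggregate table and 8.58% in the Boyden sums. Rpl22, a large subunit gene with the paralog Rpl22l1, had 26.8, 54.3 and 32.7 CPM in the libraries labelled shZEB1, all below the 73.8, 62.3 and 115 CPM of those labelled shCTL (-1.16 ± 0.56, adjusted p = 0.799). Rps21 (-0.84 ± 0.43), Rps13 (-1.29 ± 0.78) and Rplp2 (-0.93 ± 0.57) also had lower values without overlap. In all, 13 of 73 members had groups that did not overlap, beside 11.7% of all genes tested. The member median was -0.22 and that of all genes -0.02, and scaling by total counts alone moved these to 0.01 and 0.22. The share of mitochondrial counts was 23.5% to 27.6% in the libraries labelled shZEB1 and 26.1% to 40.8% in those labelled shCTL, and summed carcinoma markers were 44.3 to 1114 CPM in the libraries labelled shZEB1 and 48.3 to 1646 CPM in those labelled shCTL; whether these bear on the values was not tested.

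The effect of each line was also compared between formats, as the log2 change in aggregates minus that in the Boyden chamber in a joint fit. For 344SQ this difference passed for 1 of 79 members, Rpl3 at -0.93 ± 0.23 (adjusted p = 0.0104), beside 4.73% of all genes (2.61% as higher, 2.13% as lower). Rpl3 was lower with 344SQ in the aggregates, as given above, while in the Boyden chamber it had 755, 788, 802, 1139 and 808 CPM with 344SQ against 766, 758, 756, 740 and 691 CPM in CAFs alone. For 393P it passed for 1 of 79 as well, Rps20 at -0.93 ± 0.25 (adjusted p = 0.0115), beside 8.98% of all genes (5.32% as higher, 3.66% as lower). Rps20 had 22.5, 30.9 and 46.0 CPM with 393P and 46.5, 43.6 and 54.4 CPM in CAFs alone in the aggregates, against the rise in the Boyden chamber. The difference did not pass without aggregate 393P replicate 1 (-0.72, adjusted p = 0.0883) or aggregate CAFs alone replicate 3 (-0.84, adjusted p = 0.0651), and that of Rpl3 did not without aggregate CAFs alone replicate 2 (-0.76, adjusted p = 0.0821). The medians over the members were -0.02 for 344SQ and -0.11 for 393P, with single members at -5.75 to 0.84 and -1.84 to 0.56. Of these 79 members, 68 passed the count filter in the aggregate table on its own, so the others had few counts there. Format, depth and library batch cannot be told apart.

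The CPM of members in CAFs alone also differed between formats. The tables were scaled separately, so these ratios describe libraries. Over the 79 members the aggregate CPM was a median of 0.107 times the Boyden CPM, where 7419 other protein-coding genes had a median of 0.759. The sets were not filtered alike, here and in the length classes below. Members had to pass the count filter in the Boyden sums only, the other genes in the aggregates too. Of the 79 members, 68 also passed in the aggregates, and Rps23, Rps12 and Rpl30 did not. The medians are therefore not a like comparison. The ratio was under 0.03 for Rps23 (4.38 CPM in aggregates and 650 CPM in the Boyden chamber), Rps12 (8.02 and 711 CPM), Rpl38 (10.3 and 642 CPM), Rplp2, Rps16, Rpl17, Rps18, Rpl30 and Rps27a, and it was 0.895 for Rpl23a and 1.20 for the retrogene Rps4l. The ratio was higher in longer genes outside the set, and was not among members. Genes with up to 1500 exon bases had medians of 0.133 (26 members) and 0.280 (166 others), those with 1500 to 3000 had 0.117 (38) and 0.577 (1025), and those with 3000 to 6000 had 0.0819 (13) and 0.747 (3018). Across the members the log2 ratio had a Pearson r of -0.07 with the share of 50-base stretches that recur in other transcripts (n = 79), points that come from the same libraries.

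**Figure D5:**
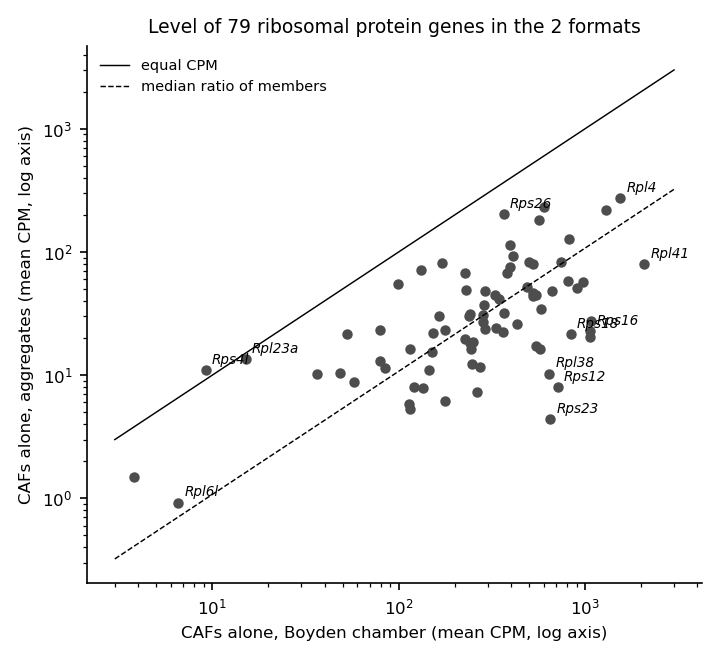
Mean CPM of 79 ribosomal protein genes in CAFs alone in aggregates (n = 3) against the Boyden chamber (n = 5), both axes logarithmic, with lines at equal CPM and at the median ratio of the members, 0.107. Most members lie well under the line of equal CPM, and Rps23, Rps12 and Rpl38 lie farthest below it.

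Per kilobase of annotated mRNA, Rpl41, whose protein is the smallest of the ribosome, was the highest member of CAFs alone in the Boyden chamber (3554 CPM per kb), before Rpl32 (1745) and Rps18 (1498), over a member median of 341. In the aggregates the highest were Rps26 (298), Rps2 (212) and Rps21 (204) over a median of 30.0, and in the libraries labelled shCTL Rps26 (586) and Rps21 (465) were among the highest over a median of 33.9. Across the members that passed the count filter in the aggregates, the log2 levels per kb of both formats correlated with a Pearson r of 0.55 (n = 68). The lowest were the same 3 paralogs in each table. Rpl10l, Rpl39l and Rpl3l, known for expression in testis or muscle, had at most 2 counts in any library, where 3 counts are 0.351 to 0.717 CPM in a Boyden sum. Of the other paralogs, Rps27l reached 145 CPM in CAFs alone of the Boyden chamber, Rps4l 9.21 CPM and Rpl6l 6.57 CPM.

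Members also differed in how steady they were between Boyden replicates. The coefficient of variation, averaged over the 3 groups, had a median of 10.7%, was 5.11% for Rpl4, and reached 27.4% for Rps2 and 25.4% for Rpl37a. Rps2 stood at 449, 842, 325, 408 and 672 CPM with 344SQ, 481, 467, 672, 453 and 550 CPM with 393P, and 839, 434, 509, 621 and 592 CPM in CAFs alone. Its highest values were those of 344SQ replicate 2 and CAFs alone replicate 1, and the groups overlapped. By Pearson correlation over the 15 Boyden sums, which share depth and library composition, the genes outside the set most like the summed members were Cox8a (r = 0.95), Siva1 (0.92), Rack1, a small subunit-bound scaffold (0.92), Psmb1 (0.91) and Psmb6 (0.90).

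The annotation limits single genes. A median of 51.1% of the 50-base stretches of a member's mRNA recur in transcripts of other annotated genes, over 50% in 42 members and over 90% in 4 (among them Rpl5, 93.8%); 22 members lie opposite another gene, and the strand setting of the counting is not given in the sources used here. Members with over 50% rose with 393P in 18 of 42 cases (42.9%), the others in 13 of 37 (35.1%).

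The calls among other genes of the translation apparatus are to be read beside 7.68% of all genes higher and 7.96% lower. With 393P in the Boyden chamber, 1 of 8 elongation factors rose and none fell, the exchange factor gene Eef1b2 (0.42 ± 0.09, adjusted p = 0.00235), while Eef1a1 and Eef2, whose mRNAs carry TOP tracts, had -0.09 and -0.07. Of 29 initiation factors, 2 rose (Eif3e, 0.33 ± 0.07, and Eif1ax, 0.21 ± 0.06) and 2 fell (Eif3j1, -0.45 ± 0.09, and Eif5b, -0.30 ± 0.07). Of 7 other genes known for TOP mRNAs, 3 rose and none fell: the splicing regulator gene Hnrnpa1 (0.40 ± 0.07), the histone chaperone gene Nap1l1 (0.25 ± 0.06) and Naca, of the nascent chain complex (0.31 ± 0.07). Their median was 0.18.

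Genes that build ribosomes were called in both directions, at rates to be read against the 7.68% of all genes higher and 7.96% lower with 393P, and 7.43% and 7.44% with 344SQ. With 393P, 3 of 57 assembly factors rose and 5 fell, among them Imp3 (0.35 ± 0.07), Brix1 (0.23 ± 0.06), Nolc1 (-0.34 ± 0.08) and Rrp12 (-0.31 ± 0.09), and with 344SQ 1 rose, Imp3 (0.27 ± 0.07), and 7 fell, among them Nop56 (-0.23 ± 0.06). Of 15 genes for RNA polymerase I and its factors, 2 rose with 393P (Taf1d and Polr1c) and 1 fell, Cd3eap, which fell with 344SQ too (-0.43 ± 0.10). With 344SQ, 0 elongation factors rose and 2 fell, 1 initiation factor rose and 2 fell, and 1 of 7 other TOP genes rose, Hnrnpa1 (0.23 ± 0.08). The comparisons of both lines share CAFs alone.

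In the aggregates few of these genes passed. With 344SQ, Rpl36al rose (1.78), 1 of 4 tested subunit genes outside the naming rule, beside 3.48% of all genes higher. Those that fell were Eif3l (-0.91), 1 of 28 initiation factors, and Npm1 (-0.54), 1 of 7 other TOP genes. Mdn1 (-0.91) and Utp20 (-0.91) fell too, 2 of 43 assembly factors, where 2.36% of all genes were lower. With 393P, Eef2k (-1.20) fell, 1 of 7 elongation factors, and so did Taf1a (-1.39), 1 of 9 genes of the RNA polymerase I list. Beside them 5.27% of all genes were lower and 5.41% higher. In the Boyden chamber 1 of 7 subunit genes outside the naming rule rose with 393P, Rpl22l1 (0.30), beside 7.68% of all genes higher. Between the libraries labelled shZEB1 and shCTL, 0 genes of these lists passed, beside 0% of all genes.

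Of 24 regulators of ribosome production tested, 1 passed between the lines in the Boyden chamber, beside 3.88% of all genes. Another passed between the lines in the aggregates, 1 of 23 tested, beside 4.15% of all genes. Deptor, an inhibitor of mTOR, was lower with 344SQ than with 393P in the Boyden chamber (-0.66 ± 0.08, adjusted p = 8.2e-06), and lower with 344SQ than in CAFs alone (-0.71 ± 0.08). In the aggregates Deptor was lower than in CAFs alone with 344SQ (-1.81 ± 0.28) and with 393P (-2.54 ± 0.30). Ddit4, a stress-induced inhibitor of mTOR, rose in the Boyden chamber with 344SQ (1.01 ± 0.15) and with 393P (0.55 ± 0.15). In the aggregates Ddit4 rose with 393P (0.87 ± 0.21, adjusted p = 0.00527), had 0.09 ± 0.23 with 344SQ, and was lower with 344SQ than with 393P (-0.77 ± 0.21, adjusted p = 0.0287). Larp1, the TOP mRNA binding protein gene, fell with 393P (-0.17 ± 0.06, adjusted p = 0.0456) and with 344SQ (-0.18 ± 0.06, adjusted p = 0.0365), and Myc had -0.16 and 0.02 with 393P and 344SQ, neither past the threshold. Mdm2 fell with 393P in the aggregates (-0.95 ± 0.21) and rose with 344SQ in the Boyden chamber (0.22 ± 0.05). In all, 1 of 24 regulators rose and 2 fell with 393P, and 2 rose and 3 fell with 344SQ, in the Boyden chamber. There 7.68% and 7.96% of all genes rose and fell with 393P, and 7.43% and 7.44% with 344SQ. Of 23 regulators tested in the aggregates, 1 rose and 2 fell with 393P, and 0 rose and 1 fell with 344SQ. Of all genes there, 5.41% and 5.27% rose and fell with 393P, and 3.48% and 2.36% with 344SQ.

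Markers of cell types also moved with the groups in the Boyden sums. Fibroblast markers summed to 6810 to 7545 CPM with 344SQ and 7498 to 7861 CPM with 393P, both below the 8780 to 9235 CPM of CAFs alone. Of 11 tested, 1 rose and 6 fell with 344SQ, and 1 rose and 5 fell with 393P. Of all genes, 7.43% rose and 7.44% fell with 344SQ, and 7.68% rose and 7.96% fell with 393P. The 7 endothelial markers summed to 6.46 to 10.6 CPM with 344SQ and 7.60 to 11.0 CPM with 393P, below the 13.1 to 17.9 CPM of CAFs alone. Kdr, the only one of them tested, fell with 344SQ (-0.89 ± 0.15) and with 393P (-0.77 ± 0.14), and Tie1 and Emcn were at 0. The 20 carcinoma markers summed to 32.4 to 58.6 CPM with 344SQ, 19.8 to 94.9 with 393P and 28.2 to 44.2 in CAFs alone, with Cldn3 at 0 and 7 passing the count filter, of which 1, Esrp2, fell with 393P (-0.48 ± 0.15). The 8 immune markers summed to 17.1 to 20.9 CPM with 344SQ, 12.8 to 20.7 CPM with 393P and 18.9 to 22.2 CPM in CAFs alone. Csf1r, 1 of 3 immune markers tested, fell with 344SQ (-0.65 ± 0.19) and with 393P (-0.71 ± 0.18), and Adgre1 and Cd3e were at 0. The mitochondrial share averaged 12.8% with 344SQ, 13.5% with 393P and 12.2% in CAFs alone. The aggregates differed in their fibroblast markers, which summed to 4860 to 5217 CPM with 344SQ, 7632 to 9060 CPM with 393P and 4009 to 6751 CPM in CAFs alone. Of 11 tested there, 1 rose and 2 fell with 344SQ, and 5 rose and 2 fell with 393P. Of all genes there, 3.48% rose and 2.36% fell with 344SQ, and 5.41% rose and 5.27% fell with 393P. Whether markers or the mitochondrial share bear on the members' values was not tested.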

How the data were processed

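Raw counts per gene were deposited by the authors as 3 tables, for aggregates, shRNA aggregates and the Boyden chamber. STAR, HTSeq and mm10 are named in the submitters' processing notes; their versions, the annotation, the strand setting and any filters are not stated there. The 3 technical columns of each Boyden replicate were summed. CPM is a gene's counts scaled to a library total of 1e6. Genes with low counts were removed with filterByExpr, and edgeR 4.0.16 (R 4.3.3) was run per table with TMM scaling and its quasi-likelihood test, Benjamini-Hochberg adjusted over all genes tested (7992, 7801 and 14040), called under 0.05; a joint fit of 15193 genes compared formats. Fits were tested on simulated data. limma 3.58.1 and DESeq2 1.42.0 served as alternatives, and scripts used Python 3.11.15. Positions and mRNA lengths come from GENCODE M21 (GRCm38, which is mm10), promoters from RefSeq (GRCm38.p6).

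Members and lists were chosen with earlier results of these data known. Named genes were those with the smallest p (up to 8 called each way, or 4 where fewer than 4 were called), fixed members of known interest and paralogs, and up to 4 called genes of each other list. Other lists were subunit genes outside the rule, elongation and initiation factors, TOP genes, RNA polymerase I, assembly factors, regulators and cell type markers. Alternatives were other scalings, filters and tools, a replicate block, single technical libraries, and leaving out each replicate. Replicate numbers were not taken to pair samples. Some members are not reported here.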

Additional observations from a re-analysis of the deposited data

Results flagged for a closer look

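Among 81 groups of 5 Boyden replicates that were examined, 6 held a value far from the others by Dixon's criterion, which chance gives in about 1 of 20 groups. With 344SQ, replicate 4 was that value for Rpl3 (1139 CPM), Rpl5 (498 CPM), Rplp2 (1438 CPM), Rps15a (500.3 CPM) and Rps20 (971 CPM). In CAFs alone, replicate 1 was that value for Rpl7 (522 CPM). The change with 393P differed between aggregates and the Boyden chamber for Rps20 (-0.93, log2, aggregates minus Boyden), and the change with 344SQ for Rpl3 (-0.93), each by the interaction term of the joint edgeR fit.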

How the results depend on the processing

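Within single technical libraries (numbers 1, 2 and 3, chosen after seeing the data) the members called were 2, 1 and 20 for 393P over CAFs alone (medians -0.013 and 0.33 in numbers 1 and 2; Rplp2 -0.16 and Rpl38 -0.30 in number 1), 1, 1 and 1 for 344SQ over CAFs alone, and 0, 15 and 0 for 344SQ over 393P (medians 0.052 and -0.36 in numbers 1 and 2). For the format difference they were 0, 0 and 3 with 393P (medians 0.061 and -0.31 in numbers 1 and 2), and 0 in number 2 with 344SQ.. For 344SQ over 393P the count was 11 with no filter, 4 with DESeq2, 4 with the library number as a block (also added) and 3 with the replicate block. For the format difference with 393P it was 2 with no filter, with total counts only, with rRNA-like and mitochondrial genes removed and with only the groups compared, and 5 with DESeq2; with 344SQ it was 2 with total counts only and with DESeq2. DESeq2 gave 0 for 344SQ over CAFs alone in aggregates, and total counts only gave a median of 0.011 in the shRNA table. The cause was not tested.

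Same-numbered samples correlated at -0.03 to 0.07 in aggregates, -0.03 to 0.12 in the shRNA table and -0.35 to 0.31 in the Boyden sums, so the numbers were not taken to pair them; the replicate block gave 29 members for 393P over CAFs alone and 7 for 344SQ.

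Without rRNA-like and mitochondrial genes in the total, the member share was 0.619%, 0.587% and 0.654% (aggregates with 344SQ, with 393P, CAFs alone), 1.02% and 1.10% (libraries labelled shZEB1 and shCTL) and 3.95%, 4.24% and 3.75% (Boyden with 344SQ, with 393P, CAFs alone). With annotated pseudogenes it was 0.391%, 0.380% and 0.414% in the aggregates and 0.628% in the libraries labelled shZEB1.

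Leaving out 1 replicate gave 0 to 0 (393P), 0 to 1 (344SQ) and 0 to 0 (344SQ over 393P) members called in aggregates, with medians of -0.14 to 0.044, -0.14 to 0.071 and -0.03 to 0.18; 0 to 0 and -0.37 to -0.07 in the shRNA table; 17 to 36, 2 to 10 and 1 to 15 in the Boyden chamber, with medians of 0.13 to 0.21, 0.02 to 0.09 and -0.13 to -0.05; and 1 to 2 (393P) and 0 to 2 (344SQ) for the format difference, with medians of -0.18 to -0.01 and -0.14 to 0.051. For single named members, 3808 of the alternative values kept direction and side of the threshold, 108 lost the call, 45 gained one, 220 uncalled values changed sign and 2 called values reversed. A scaling by unique exon length was not run. Depth limits the aggregates, where 3 counts are 2.38 to 3.96 CPM.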
